A study of Rattus norvegicus with 12 samples.

Results

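The 3 polypyrimidine tract binding (PTB) paralogs Ptbp1, Ptbp2 and Ptbp3, the cofactor genes Raver1 and Raver2, and Matr3, which encodes the nuclear matrix protein Matrin 3, were followed through RNA-Seq of rat PAC1 pulmonary artery smooth muscle cells. They were chosen by gene symbol, with earlier results of these data known, and are 6 of the 33294 genes in the deposited count table. The study set 4 groups of 3 libraries side by side. D1 was the more differentiated culture (PAC1-D, split less often and less thinly) given a control siRNA, and P was the more proliferative culture (PAC1-P, split more often at a higher dilution) given the same control. RBPMS KD1 was PAC1-D given an siRNA to Rbpms, and MBNL KD was PAC1-D given siRNAs to both Mbnl1 and Mbnl2. All 4 groups were thus siRNA-transfected, with 90 pmol per well in each of the 2 transfections, and all came from 1 cell line. The methods give 90 pmol as a total of siRNA, which in MBNL KD covered the siRNAs to both Mbnl1 and Mbnl2.

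PTB proteins bind pyrimidine-rich RNA through RNA recognition motifs and are best known as repressors of alternative exons. Ptbp1 is the widely expressed form, Ptbp2 is enriched in neurons and Ptbp3 is abundant in blood cells, and the paralogs can lower each other's mRNA through exons whose skipping or inclusion leads to decay. Raver1 and Raver2 are RNA-binding proteins that contact PTB through short peptide motifs, and Matrin 3 carries a motif of the same kind. In smooth muscle, PTB and Raver1 are known from repression of the nonmuscle exon in a pair of mutually exclusive exons of the tropomyosin gene Tpm1, while Rbpms, an RNA-binding protein of differentiated smooth muscle, acts beside them on splicing.

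The knockdown groups were defined by 3 siRNA sequences, shown here because each group rests on the sequence used for its target, so that loss of the target and any other effect of that siRNA cannot be told apart. The strands below are printed 5′ to 3′, as the study lists them.
RBPMS: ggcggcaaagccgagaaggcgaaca
MBNL1: cacggaauguaaauuugcauu
MBNL2: gaagaguaauugccugcuuuu

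Library totals lay between 80842635 and 90771289 counts. They exceed the number of reads to which the methods say each library was subsampled, and whether the mates of a read pair were counted separately is not given in the sources used here, so 1 fragment may stand for up to 2 counts. Values by library are counts per 1000000 counts of the library (CPM) scaled by TMM, edgeR's correction for library composition, and a count of 3 corresponded to 0.0319 to 0.037 CPM. Rbpms stood at 25.0% of its D1 mean in RBPMS KD1 and at 6.32% in P, and Mbnl1 and Mbnl2 at 23.8% and 29.6% in MBNL KD, so the labelled targets were low in the libraries named for them. The summed level of 5 smooth muscle markers ranged from 8510 to 8930 CPM in D1, 120 to 128 in P, 4290 to 4450 in RBPMS KD1 and 6890 to 6980 in MBNL KD, and that of the proliferation markers Mki67 and Top2a was 459 to 475, 571 to 590, 357 to 379 and 271 to 274 CPM. Of the markers of other cell types, the 2 for fibroblasts summed to 17.4 to 19.3 CPM in D1, 25.4 to 26.3 in P, 30.5 to 31.9 in RBPMS KD1 and 11.4 to 11.9 in MBNL KD. The immune and epithelial sums stayed at or below 1.49 CPM, the 4 endothelial markers together reached 0.746 to 0.816 CPM in D1, 5.43 to 6.71 in P, 1.82 to 1.84 in RBPMS KD1 and 0.937 to 1.41 in MBNL KD, and the endothelial gene Cdh5 was at 0 in D1 but not in P. What these shifts contribute to the values of the PTB and Raver genes was not tested, and in bulk RNA a smaller share of cells using a gene and less RNA per cell cannot be told apart.

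The clearest movement among the PTB paralogs was that of Ptbp3, which was higher in P and lower in RBPMS KD1, each relative to the same D1 libraries, and close to D1 in MBNL KD. In D1 the 3 libraries held 169.2, 173.4 and 166.2 CPM of Ptbp3. In P they held 328.5, 336.0 and 348.1 CPM, 199% of the D1 mean, and in RBPMS KD1 73.19, 69.7 and 73.31 CPM, 42.5% of it. The 3 MBNL KD libraries, at 166.0, 168.3 and 166.0 CPM, lay within or just under the D1 range, whereas neither the P nor the RBPMS KD1 libraries overlapped D1.

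By edgeR's quasi-likelihood test, Ptbp3 rose 1.98-fold in P (log2 fold change 0.99, SE 0.0262, adjusted p = 1.75e-26), just inside the 2-fold line that this text uses, with an adjusted p under 0.05, for a call. Leaving out D1 replicate 2 gave 1.00 and leaving out P replicate 1 gave 1.01, each past that line. In RBPMS KD1 Ptbp3 fell 2.35-fold (log2 fold change -1.23, SE 0.0288, adjusted p = 1.44e-23 by edgeR), a change exceeded in size by 2.75% of the genes tested. The MBNL KD value was -0.02 (SE 0.0238, adjusted p = 0.41 by edgeR), and the direct test of MBNL KD against RBPMS KD1 put Ptbp3 2.31-fold higher in MBNL KD (log2 fold change 1.21, SE 0.0265, adjusted p = 4.23e-26 by edgeR). P and RBPMS KD1 were not tested against each other here.

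**Figure D1:**
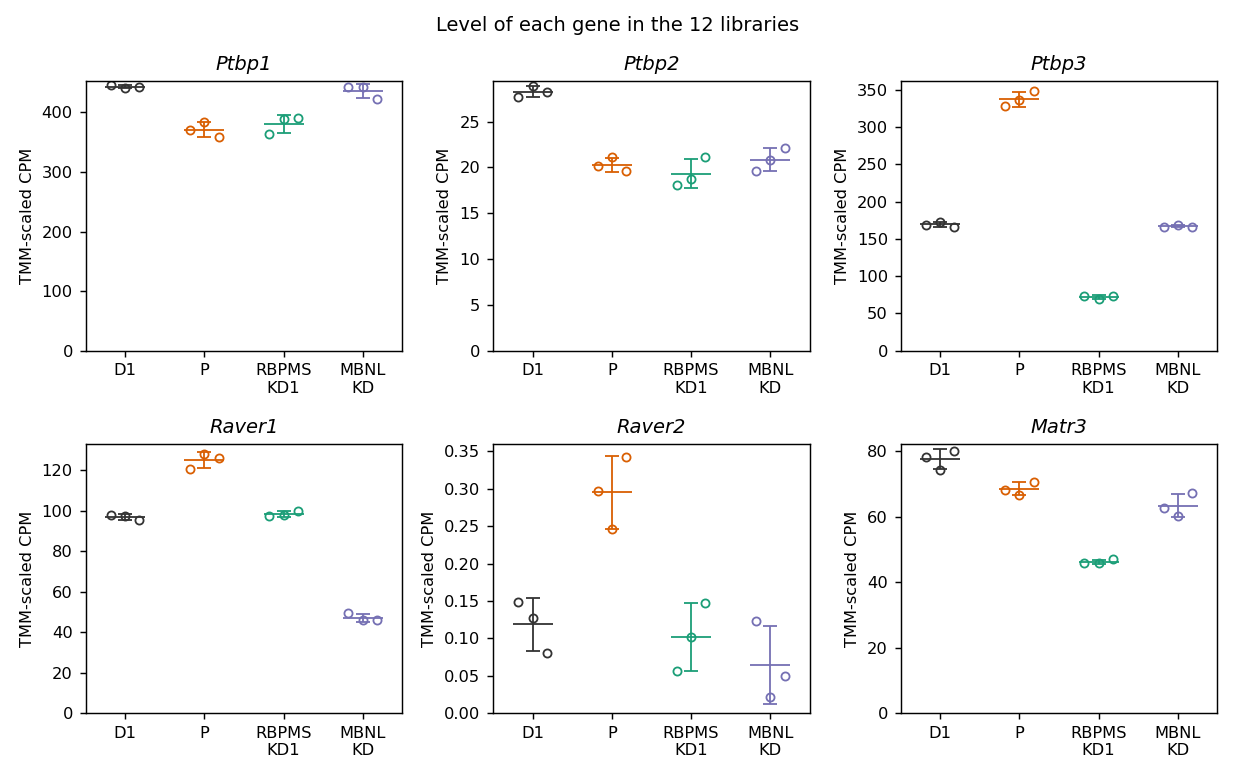
Level of each of the 6 genes in TMM-scaled CPM (vertical axes, linear, starting at 0) in the 4 groups on the horizontal axis, with open circles for the 3 libraries of a group, the long horizontal line for their mean and the bar for 1 SD. Ptbp3 lies near 169.6 CPM in D1 and 166.8 in MBNL KD, at 337.5 in P and at 72.07 in RBPMS KD1, while Raver1 is lowest in MBNL KD, at 47.19 CPM.

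Ptbp1, the general repressor of the family, moved in smaller steps. Its D1 libraries held 446.3, 441.7 and 442.1 CPM, those of P 369.8, 384.5 and 359.4, and those of RBPMS KD1 363.0, 389.3 and 390.5, so that P and RBPMS KD1 lay below every D1 library. MBNL KD, at 443.3, 443.1 and 422.9 CPM, overlapped D1. Ptbp1 fell by 0.26 on the log2 scale in P (SE 0.0253, adjusted p = 3.8e-11 by edgeR) and by 0.22 in RBPMS KD1 (SE 0.0268, adjusted p = 5.36e-08). Changes of this size were common in these data, since 67.6% of the genes tested in P and 51.9% of those in RBPMS KD1 moved further. The fall in P shrank to -0.09 under quantile normalization. The MBNL KD value was -0.02 (adjusted p = 0.485 by edgeR) and turned to 0.07 (adjusted p = 0.00502) under quantile normalization, so no direction is given for it.

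Ptbp2, the neuronal paralog, was lower than D1 in all 3 other groups. D1 held 27.74, 28.88 and 28.25 CPM. The P libraries held 20.18, 21.12 and 19.63 CPM, those of RBPMS KD1 18.08, 18.77 and 21.16, and those of MBNL KD 19.61, 20.81 and 22.16, so that no library of these groups reached the lowest of D1 and their own ranges overlapped. The log2 fold changes were -0.48 in P (SE 0.0437, adjusted p = 7.37e-12), -0.55 in RBPMS KD1 (SE 0.0498, adjusted p = 1.53e-10) and -0.44 in MBNL KD (SE 0.0461, adjusted p = 1.13e-09), all by edgeR. All 3 rest on the same D1 libraries. MBNL KD and RBPMS KD1 differed by 0.10 (SE 0.057, adjusted p = 0.107 by edgeR), and without RBPMS KD1 replicate 3 by 0.16 (adjusted p = 0.0216). The summed level of 4 neuronal markers, with Elavl4 at 0 in every library, was 3.25 to 3.6 CPM in D1, 1.76 to 2.13 in P, 3.19 to 3.58 in RBPMS KD1 and 0.382 to 0.661 in MBNL KD. It was thus lower than D1 in P and MBNL KD, where Ptbp2 fell too, and overlapped D1 in RBPMS KD1, where Ptbp2 fell as well, and its part in the Ptbp2 values was not tested.

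The balance of counts among the paralogs followed these values. Per 100 counts of Ptbp1 there were 37.6 to 39.27 counts of Ptbp3 in D1, 87.38 to 96.87 in P, 17.9 to 20.16 in RBPMS KD1 and 37.44 to 39.25 in MBNL KD. Relative to D1 the ratio was thus up 2.38-fold in P and down 2.02-fold in RBPMS KD1, without overlap, and it lay within the D1 range or just below it in MBNL KD. Counts of Ptbp2 per 100 of Ptbp1 were 6.217 to 6.539 in D1, 5.458 to 5.493 in P, 4.821 to 5.418 in RBPMS KD1 and 4.425 to 5.239 in MBNL KD, lower than D1 without overlap in each. With 3 libraries against 3, an exact two-sided permutation test cannot give a p below 0.1, which every ratio without overlap reached (0.133 after Benjamini-Hochberg adjustment over 12 ratio tests). These ratios compare counts, not molecules, since transcript lengths were not available and a longer transcript collects more counts.

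**Figure D2:**
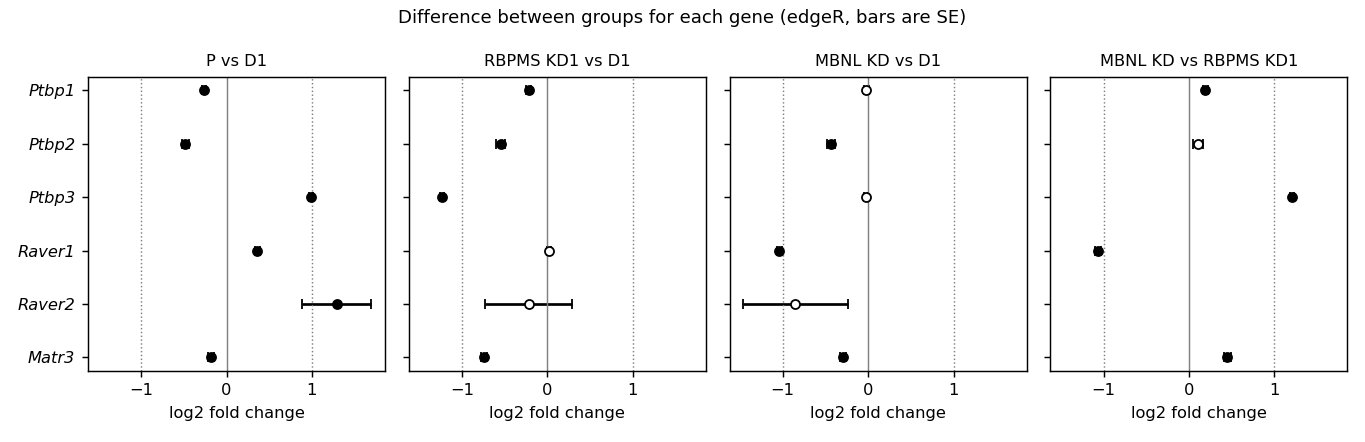
Log2 fold change of each gene (horizontal axes) in the 4 comparisons by edgeR, with bars of 1 SE, filled circles for an adjusted p under 0.05, open circles for the rest and dotted lines at a 2-fold change. Ptbp3 sits at 0.99 in P, at -1.23 in RBPMS KD1 and at -0.02 in MBNL KD, whereas Raver1 passes -1 in MBNL KD, and Raver2 has bars many times wider than the others and no value in the last panel.

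Raver1, the PTB cofactor first tied to Tpm1 splicing, had another pattern. It stood at 98.15, 97.63 and 95.43 CPM in D1, 120.8, 128.2 and 126.3 in P, 97.22, 97.83 and 99.97 in RBPMS KD1 and 49.36, 46.33 and 45.88 in MBNL KD. All 3 P libraries were above D1, all 3 MBNL KD libraries were far below it, and RBPMS KD1 overlapped it. In MBNL KD Raver1 fell 2.05-fold (log2 fold change -1.04, SE 0.0301, adjusted p = 7.89e-23 by edgeR), and 9.8% of the genes tested moved further. Quantile normalization gave -0.95, short of the 2-fold line. The rise in P was 0.36 (SE 0.0279, adjusted p = 1.48e-13 by edgeR), and the RBPMS KD1 value was 0.02 (SE 0.0275, adjusted p = 0.55 by edgeR), or 0.06 (adjusted p = 0.0492) under quantile normalization. MBNL KD lay 2.09-fold below RBPMS KD1 (log2 fold change -1.06, SE 0.0311, adjusted p = 5.19e-23 by edgeR).

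Set against Ptbp1, Raver1 gave 21.59 to 22.1 counts per 100 in D1, 32.67 to 35.15 in P, 25.13 to 26.78 in RBPMS KD1 and 10.46 to 11.14 in MBNL KD. The 4 groups did not overlap in this ratio. Relative to D1 it was 1.54-fold higher in P, 1.18-fold higher in RBPMS KD1 and 2.03-fold lower in MBNL KD, each at the smallest p that the exact permutation test allows.

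Raver2, the other member of the cofactor pair, was close to the limit of detection, and its values are given as raw counts. The D1 libraries held 13, 11 and 7 counts, P 28, 23 and 32, RBPMS KD1 5, 9 and 13, and MBNL KD 11, 2 and 4, in libraries of at least 80842635 counts. The P libraries lay above all others, and the other groups overlapped, with 1 MBNL KD library under the 3-count limit. If mates were counted separately, these counts stand for fewer fragments, and with counts halved Raver2 in P was 1.26 (adjusted p = 0.00336 by edgeR). Raver2 rose 2.45-fold in P (log2 fold change 1.29, SE 0.404, adjusted p = 0.00449 by edgeR). Under quantile normalization the value was 0.67 (adjusted p = 0.12), which ends the call. The values in RBPMS KD1 (-0.22, SE 0.512, adjusted p = 0.742 by edgeR) and in MBNL KD (-0.85, SE 0.611, adjusted p = 0.223 by edgeR) could not be told from D1 at this depth, and leaving out single MBNL KD libraries moved the last from -1.72 to -0.44. In the direct comparison of the knockdowns Raver2 was below the filter on low counts.

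Some of these genes overlap others. In the RefSeq gene table of a newer rat assembly (GRCr8) Raver2 overlaps Jak1, a cytokine receptor kinase gene that was looked up after the values had been seen. Jak1 averaged 164.6 CPM in D1 and 308.7 in P (log2 fold change 0.90, SE 0.0246, adjusted p = 4.06e-26 by edgeR), against 169.9 in RBPMS KD1 and 154.9 in MBNL KD. Whether strand was used in counting is not given in the sources used here. Reads of Jak1 assigned to Raver2 were not tested for. The same table places LOC120097581 overlapping Ptbp3, with 11 to 28 counts per library against 6116 to 32582 for Ptbp3, and Snhg4 (65 to 190 counts) and Mir1949 (2 to 13) overlapping Matr3 (4016 to 6976). Per 100 counts of Raver1 there were 0.0842 to 0.152 counts of Raver2 in D1, 0.192 to 0.271 in P, 0.0584 to 0.147 in RBPMS KD1 and 0.0481 to 0.25 in MBNL KD. P alone stood apart from D1 in this ratio (1.97-fold higher), while RBPMS KD1 and MBNL KD overlapped D1 (exact permutation p = 0.6 and 0.9). On the authors' values, which start at 35, the P difference turned to -0.12 on the log2 scale. The MBNL KD difference in this ratio, -0.13 on the log2 scale, was -0.72 without MBNL KD replicate 1 and 0.46 without replicate 2, and the RBPMS KD1 difference, -0.30, was 0.06 without RBPMS KD1 replicate 1, so neither has a direction.

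Matr3 was lower than D1 in each of the other groups, most in RBPMS KD1. D1 held 78.26, 74.28 and 80.05 CPM, P 68.16, 66.7 and 70.66, RBPMS KD1 45.94, 45.77 and 46.95, and MBNL KD 62.74, 60.25 and 67.13. No library of the other groups reached D1, RBPMS KD1 lay below all of them, and P and MBNL KD overlapped each other. Matr3 fell 1.68-fold in RBPMS KD1 (log2 fold change -0.74, SE 0.0331, adjusted p = 2.41e-17 by edgeR), a change that 10.2% of genes exceeded. The falls in MBNL KD (-0.29, SE 0.0341, adjusted p = 1.07e-08 by edgeR) and in P (-0.18, SE 0.0316, adjusted p = 3.8e-06 by edgeR) were exceeded by 52.1% and 76.1% of genes. Against RBPMS KD1, MBNL KD was higher by 0.45 (SE 0.0362, adjusted p = 2.61e-12 by edgeR).

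The Matr3 counts are uncertain in level, because the table also lists the pseudogene Matr3-ps2, named from its symbol as a copy of Matr3 and looked up after the values had been seen, and reads could be split between such copies. Matr3-ps2 held 58.27 to 59.63 counts per 100 of Matr3 in D1, 59.53 to 60.94 in P, 56.12 to 56.62 in RBPMS KD1 and 54.43 to 56.52 in MBNL KD. Its log2 fold changes were -0.15 in P (SE 0.0368, adjusted p = 0.000454), -0.81 in RBPMS KD1 (SE 0.0402, adjusted p = 3.09e-16) and -0.38 in MBNL KD (SE 0.0396, adjusted p = 1.15e-09), all by edgeR and all in the direction of Matr3. Library by library the pair moved almost together.

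**Figure D3:**
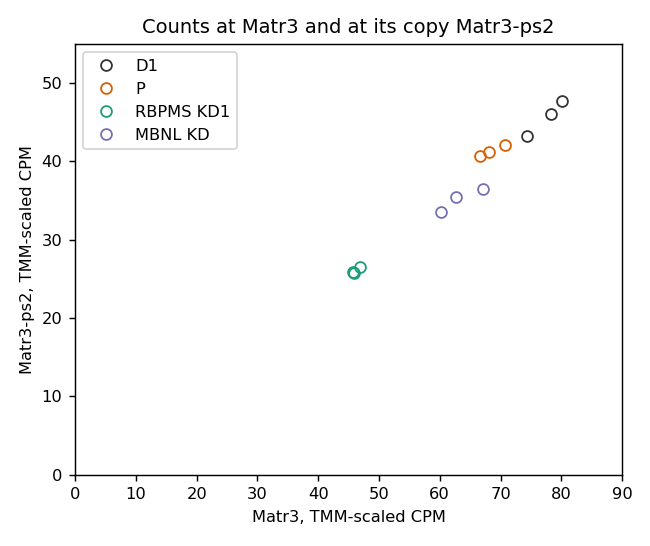
TMM-scaled CPM of Matr3 (horizontal axis) against that of its copy Matr3-ps2 (vertical axis), 1 open circle per library, coloured by group, both axes linear from 0. The points lie near 1 line through the origin, with RBPMS KD1 lowest, near 46.22 and 26.08 CPM, and D1 highest, near 77.53 and 45.68 CPM.

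Counted together, all 6 genes passed the test in P, 3 higher (Ptbp3, Raver1, Raver2) and 3 lower (Ptbp1, Ptbp2, Matr3), where 77.9% of the 16814 genes tested passed (40.4% higher and 37.6% lower). In RBPMS KD1 4 of the 6 passed, all lower, where 59.1% of genes passed in either direction and 29.5% passed lower, as many as passed higher (29.5%). In MBNL KD 3 of the 6 passed, all lower, where 67.5% of genes passed, 33.8% higher and 33.7% lower. Between the knockdowns 4 of the 5 genes tested passed, 3 of them higher in MBNL KD, where 69.5% of genes passed, 35.1% higher and 34.5% lower. Calls past the 2-fold line numbered 1 in P (Raver2, where 27.6% of genes were called), 1 in RBPMS KD1 (Ptbp3, 4.68%), 1 in MBNL KD (Raver1, 10.2%) and 2 between the knockdowns (Ptbp3 and Raver1, 11.9%). None of these counts was tested against the share of all genes beside it.

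Of 15 further genes for PTB-related proteins and partners, 6.67% were called in P, 0.0% in RBPMS KD1 and 6.67% in MBNL KD, against 27.6%, 4.68% and 10.2% of all genes, and 6.67% between the knockdowns against 11.9%. They comprise heterogeneous nuclear ribonucleoproteins (Hnrnp genes), poly(C)-binding proteins, the paraspeckle proteins Sfpq, Nono and Pspc1, and single genes such as Khsrp and Upf1. In P 2 passed higher and 11 lower, where 40.4% and 37.6% of all genes did (median log2 fold change -0.13 against 0.02 over all genes tested). In RBPMS KD1 1 passed higher and 10 lower, against 29.5% of all genes in each direction (median -0.15 against 0.00), and in MBNL KD 3 and 12, against 33.8% and 33.7% (median -0.18 against 0.01). Hnrnpf, a G-tract-binding splicing factor, fell from 394.9 to 204.1 CPM in RBPMS KD1 (log2 fold change -0.95, SE 0.0251, adjusted p = 2.13e-22 by edgeR), stood at 622.6 CPM in P (0.65) and at 440.8 CPM in MBNL KD (0.16), and was 1.11 higher on the log2 scale in MBNL KD than in RBPMS KD1. Srrm4, a neuronal splicing activator of microexons, was called higher in P (2.59, SE 0.344, adjusted p = 3.63e-08 by edgeR) and MBNL KD (1.51, SE 0.416, adjusted p = 0.00203 by edgeR), but from 6 to 17 counts per library in D1. With limma on the authors' values, which start at 35, these were 0.93 and 0.47, neither called. A minimum of 10 counts in every library left Srrm4 untested in both. Its value in RBPMS KD1 was 0.93 (adjusted p = 0.0744 by edgeR), and without D1 replicate 1 it was 1.42 (adjusted p = 0.0273).

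In a list of 14 genes known to carry PTB-regulated exons, most were lower in P, as gene-level counts that say nothing of exon use. There 3 passed higher and 9 lower, against 40.4% and 37.6% of all genes, and 9 were called (64.3% against 27.6% of all genes), with a median of -1.34 against 0.02. Both lists were chosen with earlier results of these data known, so their shares beside those of all genes are not an independent test. Those called lower included genes of the contractile and adhesion machinery, namely Tpm1 (-2.22), Tpm2 (-1.77), the actin crosslinkers Actn1 (-1.88) and Flna (-1.99), and the adhesion protein Vcl (-1.82), beside the death receptor Fas (-2.40), the scaffold Dlg4 (-1.29) and the growth factor receptor Fgfr2 (-1.38). Gabbr1, a GABA receptor subunit, was called higher (1.10). The smooth muscle marker sum fell in the same libraries, as given above.

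In the knockdowns the medians of that list were nearer 0. In RBPMS KD1 4 passed higher and 9 lower, against 29.5% of all genes in each direction (median -0.28). Fgfr2 was called, 1 of 14 genes or 7.14% against 4.68% of all genes (-1.03, SE 0.111, adjusted p = 4.22e-09 by edgeR), with -0.98 without D1 replicate 2 and -0.92 without RBPMS KD1 replicate 2. In MBNL KD 5 passed higher and 9 lower, against 33.8% and 33.7% (median -0.16), and 0 were called by edgeR against 10.2% of all genes, the widest values being Fgfr2 at 0.89 (SE 0.0825, adjusted p = 8.84e-11 by edgeR) and Fgfr1 at -0.85 (SE 0.0403, adjusted p = 1.27e-17 by edgeR). The direct test put Fgfr2 1.91 higher and Fgfr1 1.04 lower in MBNL KD than in RBPMS KD1 on the log2 scale, both called, which is 14.3% of the list against 11.9% of all genes.

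**Figure D4:**
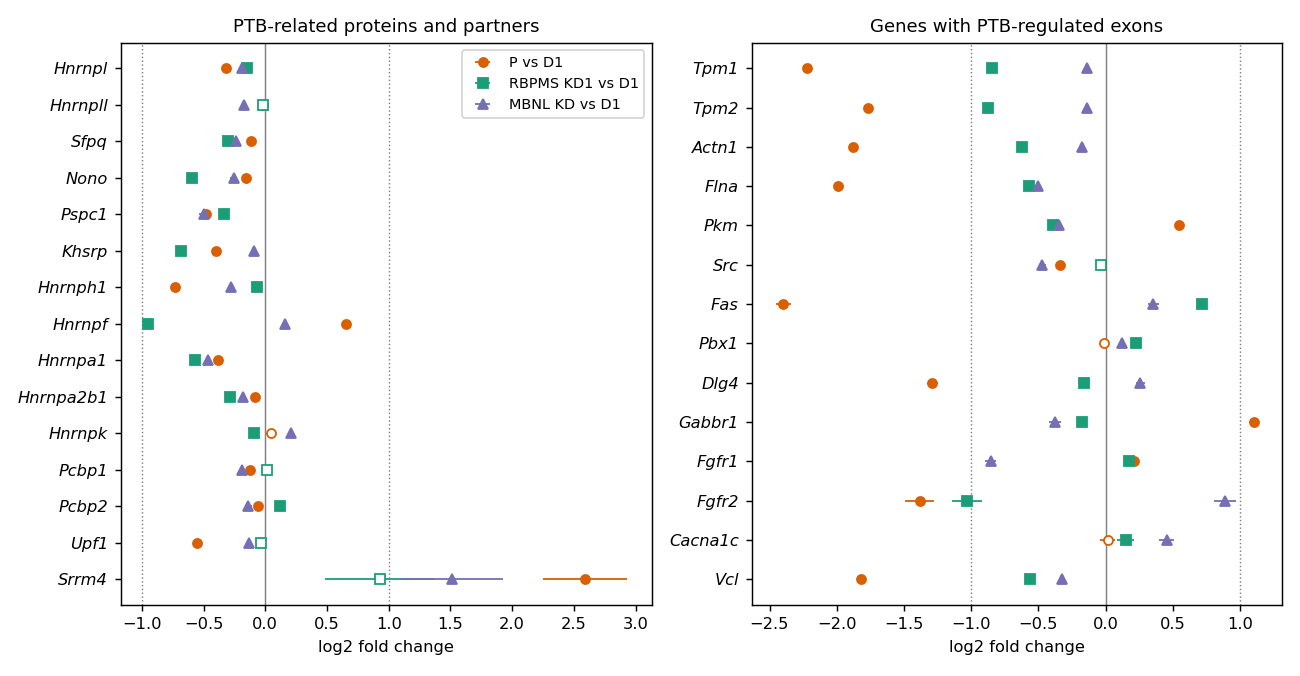
Log2 fold change against D1 (horizontal axes) of the 15 PTB-related proteins and partners (left) and the 14 genes with PTB-regulated exons (right) in P (circles), RBPMS KD1 (squares) and MBNL KD (triangles), with bars of 1 SE, filled symbols for an adjusted p under 0.05 and dotted lines at a 2-fold change. The right panel spreads to -2.40 in P (Fas), whereas on the left only Srrm4 lies beyond 1.

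The genes most like Ptbp3 and Raver2 in pattern were looked up across the groups. Likeness was taken as the distance between the 3 log2 differences of group means from D1 (P, RBPMS KD1, MBNL KD), over the other genes with at least 100 scaled counts on average (11311 for Ptbp3 and 11312 for Raver2), and is given for the 2 members with the widest range of group means, Ptbp3 (2.23 on the log2 scale) and Raver2 (2.18). The differences for Ptbp3 were 0.99, -1.23 and -0.02. The nearest genes were the fatty acid elongase Elovl6 (distance 0.27; 1.14, -1.13 and 0.19), Bcl7a, a chromatin remodelling subunit (0.34; 1.04, -0.96 and -0.23), and the pteridine reductase Qdpr (0.35; 1.10, -1.23 and -0.36). For Raver2, whose own differences of 1.31, -0.22 and -0.87 rest on few counts, Usp28 (0.15), Cul9 (0.18) and Lrrc8e (0.21) were nearest. The 4 group means are all that these distances use.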

How the data were processed

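Poly(A) RNA of 12 PAC1 libraries was sequenced. The authors subsampled reads to equal numbers, aligned them with STAR 2.7.11b to mRatBN7.2 and deposited featureCounts counts per gene symbol, and they made a deposited table of signal values by noise correction and quantile normalization (linear scale, minimum 35, 19812 genes). Counts were tested here in R 4.3.3 with edgeR 4.0.16 (filterByExpr, TMM, quasi-likelihood F test over the 6 libraries compared, Benjamini-Hochberg over all genes tested). SE is the log2 fold change over the square root of F. DESeq2 1.42.0, limma 3.58.1 on log2 signal, quantile and size-factor scaling, other filters, halved counts, 1 fit of all 12 libraries, a replicate block and each library left out were alternatives. The fit of P against D1 was tested on simulated data. The edgeR p-values rest on the spread between the 3 libraries of a group, which the study calls biological replicates. That spread is estimated with information shared over all genes tested, so a p-value does not rest on 1 gene's own libraries alone. The common coefficient of variation between libraries lay between 2.88% and 3.43%. Counting limits cover counting error only.

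The 6 genes and both lists were chosen with earlier results of these data known. Genes named are the members, the siRNA targets, called list genes (otherwise the 2 widest), and the 3 nearest in pattern to the 2 widest-ranging members. Jak1 and other overlapping genes, Matr3-ps2, marker genes and list genes named without values fall outside this rule. 1 gene of the list of PTB-related proteins is not reported here and was left out of its counts. Splicing was not analysed here.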

Additional observations from a re-analysis of the deposited data

How the results depend on the processing

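Of 362 values of the 6 genes under the alternatives, 350 kept direction and side of the adjusted p of 0.05, 1 lost it, 5 gained it and 6 changed sign. Under quantile normalization and limma on the authors' values Ptbp1 in MBNL KD was 0.0739 and 0.0656, each passing, and Ptbp3 0.0461 and 0.0444, neither passing. With single libraries left out, Ptbp1 in MBNL KD ran from -0.0333 to 0.0009 and Raver2 in RBPMS KD1 from -0.57 to 0.0672. On the authors' values, which start at 35, the Raver2 to Raver1 ratio in P turned to -0.12, its MBNL KD value was 0.72 (-0.13 on counts), and the P values of Ptbp2 to Ptbp1 and Raver1 to Ptbp1 were -0.35 and 0.48. Genes called beyond 2-fold were 2 in P without D1 replicate 2 or P replicate 1 (range 1 to 2), and 0 in MBNL KD under quantile normalization and limma. In P, quantile normalization and limma called Ptbp3 (1.11 and 1.13) and not Raver2 (0.67 and 0.27), and the 10-count filter called Ptbp3 (1.01) and left Raver2 untested. The cause was not tested. Ptbp2 between the knockdowns passed at 0.16 under quantile normalization and limma.

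Calls over all genes in P were 4641, and 2933 with 10 counts in every library. With limma they were 209, 787 and 1053 against 745, 1643 and 1920 for RBPMS KD1, MBNL KD and the knockdowns compared. Quantile normalization moved the higher share of calls from 59.4% to 46.1%, 65.4% to 53.2% and 59.6% to 50.1%. Srrm4 was not called under limma or the 10-count filter, nor Fgfr2 in RBPMS KD1 under limma (-0.95). Deviations of same-numbered libraries correlated at -0.018 to 0.0585, each under 0.1, so they were not treated as paired. With the replicate block 4593, 730, 1634 and 1915 genes were called, no call among the 6 genes changed, and Raver2 in P had an adjusted p of 0.0139 by edgeR. Libraries correlated best with their own number in 3 of 6 for P, 4 for RBPMS KD1, 0 for MBNL KD and 6 for the knockdowns compared. Between the knockdowns the correlations were weak, at 0.0243 to 0.0317, but all above 0. There the replicate block gave 1915 calls against 1920 without it.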
